A study of Mus musculus with 12 samples.

Results

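Cholesterol synthesis and SREBP target genes were followed here in bone marrow-derived macrophages (BMDMs) of the mouse, through 8 genes taken by symbol from a table of 38739 symbols. The 8 genes were Mvd, Idi1 and Fdps of the mevalonate pathway, Lss, Cyp51, Msmo1 and Dhcr7 of the sterol part of the pathway, and Insig1, which regulates it. All 8 were among the 11887 genes that passed the filter on low values. RNA was sequenced in 12 samples, 3 for each of 4 groups, which were wild-type (WT) cells left untreated in media control (WT UT), WT cells given lipopolysaccharide (LPS) of E. coli 026:B6 (WT LPS), cGAS-/- cells left untreated (cGAS-/- UT) and cGAS-/- cells given LPS (cGAS-/- LPS). LPS is a component of the bacterial wall that activates macrophages, and cGAS is a sensor of double-stranded DNA in the cytosol. According to the methods, WT and cGAS-/- mice were C57BL/6J males of 8 weeks. WT mice were bought from a supplier in Thailand and cGAS-/- mice came from a university in Denmark. Genotype and source of the animals therefore cannot be told apart. The deletion was systemic by the study's own description, so that the macrophages came from animals without cGAS throughout. The sample labels give LPS at 100 ng/mL for 1 h, whereas the methods give a higher dose for 24 h, and these sources could not be reconciled. The RNA extraction step of the labels names neutrophils, although the samples are labelled macrophages. Samples of 1 group are named technical replicates in the study, and all p-values therefore measure the spread between them, which may be smaller than that between mice.

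Cholesterol is made from acetyl-CoA through mevalonate, isoprenoid units, squalene and a series of sterols. Transcription of the enzymes is driven by the SREBP factors, which are held in the endoplasmic reticulum by Scap and the Insig proteins when sterols are plentiful and are released to the nucleus when sterols are scarce. Insig1 is itself an SREBP target, so that it rises and falls with the enzymes it restrains. In macrophages, sterol synthesis, uptake and efflux are known to be adjusted during activation by bacterial products and interferon.

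The promoters of Cyp51 and Insig1 are shown because both genes were called in WT cells given LPS and both carry motifs known from SREBP-driven promoters. Msmo1 meets the same terms, but only 32 bases of its window lie before an annotated untranslated region, and it is described by its motifs alone. These calls lay near the threshold. Of 26 alternative ways of processing, 16 lost the call of Cyp51, 12 that of Insig1 and 16 that of Msmo1. SREBPs bind the sterol regulatory element together with NF-Y, which binds CCAAT, and Sp1, which binds the GC box GGGCGG. RefSeq promoters, from 250 bases before the start of transcription to 50 after it, were at hand for 7 of the 8 genes (9 promoters, of which 3 were of Dhcr7), and Fdps had no entry. The table was built on GRCm38.p6, and positions in GRCm39 were found by exact match of the sequence, 1 match for each. The stretches below run from 250 bases before the RefSeq start to the last base before any untranslated region of the GENCODE vM39 annotation, 5′ to 3′ on the strand of the gene, with these boxes and the E-box, on either strand, in capitals.
Cyp51, chr5:4154752-4154947, minus strand: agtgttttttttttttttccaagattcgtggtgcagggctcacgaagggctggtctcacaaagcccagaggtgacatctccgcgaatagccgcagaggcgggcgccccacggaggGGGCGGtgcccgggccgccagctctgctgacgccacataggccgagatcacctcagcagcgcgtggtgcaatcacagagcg
Insig1, chr5:28276160-28276314, plus strand: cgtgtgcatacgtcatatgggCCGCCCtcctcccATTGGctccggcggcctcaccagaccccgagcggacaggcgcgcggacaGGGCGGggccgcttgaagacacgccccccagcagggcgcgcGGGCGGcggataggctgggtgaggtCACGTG
The Cyp51 stretch holds 1 GC box, and its CCAAT lies closer to the start, in bases not shown. The Insig1 stretch holds 3 GC boxes, 1 CCAAT in reverse and 1 E-box CACGTG.

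Over the full windows and both strands, CCAAT was found in 7 of the 9 promoters, at least 1 for each of the 7 genes, against 37.41% of 32851 RefSeq promoters. GGGCGG was found in 8 of the 9, against 35.66% of all promoters, and both together in 7 of the 9, again at least 1 for each gene, against 12.81%. CACGTG was found in 2 of the 9, those of Insig1 and 1 of Dhcr7, against 7.15% of all promoters. The sterol regulatory element was searched as TCACNCCAC. It had no exact match in the 9 promoters, against 1.24% of all promoters, and a match with 1 mismatch in 4 of the 9 promoters (of Cyp51, Insig1, Dhcr7 and Msmo1), against 24.22%. TCACNCCAC can share end letters with CCAAT or CACGTG, as in Msmo1, where a CCAAT at positions -96 to -92 from the start shares its last base with a match with 1 mismatch at -92 to -84. A match is a description of the letters only.

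Values were taken as TPM (abundances of transcripts scaled to a common total) averaged over the annotated transcripts of a symbol. The averaged values share no common total, so the level of a gene compares between samples only up to a scaling factor. By a trimmed mean of gene ratios that factor ran from 0.824 (WT UT replicate 1) to 1.889 (WT LPS replicate 3). Levels of different genes cannot be compared. Summed over all symbols, 11 samples reached 447189 to 503156 and the remaining one, WT LPS replicate 3, reached 709802. A ferritin pseudogene, Fth-ps3, held 31.7% of the sum there and protein-coding genes 18.5%, so it stood apart from the others, and the tests that use it were also run without it. The targeted gene, Cgas, was at 1.19 to 3.25 TPM in the 6 WT samples and 0.0703 to 0.290 in the 6 cGAS-/- samples, with no overlap. Macrophage markers (10 of 14 in the table, Cd68, Lyz2 and Spi1 among them) summed to 20651 to 21623 TPM in WT UT, 20097 to 29987 in WT LPS, 24421 to 26142 in cGAS-/- UT and 35830 to 36202 in cGAS-/- LPS, and none was below 1 in all samples of a group. Lyz2 made up most of that sum and was called higher in cGAS-/- LPS than in WT LPS (log2 fold change 0.80), while Mrc1 (-1.99) and Ctss (-0.77) were called lower, 3 of the 10 in all. Neutrophil markers (12 of 14) summed to 177 to 252 TPM in WT UT, 141 to 529 in WT LPS, 86.7 to 167 in cGAS-/- UT and 446 to 502 in cGAS-/- LPS, with Prtn3 at 0 in WT LPS and Elane at 0 in cGAS-/- UT. Lcn2, singled out after its values were seen, made up 348 to 377 TPM of the sum in cGAS-/- LPS, and without it the other 11 summed to 173 to 244 TPM in WT UT, 91.98 to 403 in WT LPS, 85.8 to 157 in cGAS-/- UT and 98.1 to 125 in cGAS-/- LPS. B cell markers (9 of 12) summed to 110 to 135 TPM in WT UT, 30.9 to 46.0 in WT LPS, 20.4 to 29.3 in cGAS-/- UT and 3.35 to 9.32 in cGAS-/- LPS, with Vpreb3 at 0 in both LPS groups. Adipocyte and fibroblast markers (8 of 10) summed to 83.1 to 90.1 TPM in WT UT, 11.99 to 38.9 in WT LPS, 71.9 to 90.6 in cGAS-/- UT and 8.69 to 10.3 in cGAS-/- LPS, and none was at 0 throughout a group. Erythroid markers (7 of 8) overlapped between all groups, at 1.56 to 37.4 TPM, with Slc4a1 at 0. These sums moved with the groups, and their part in the results was not tested. In bulk RNA, fewer cells of a type and less RNA per cell cannot be told apart.

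Among the enzymes of the mevalonate pathway, Mvd, Idi1 and Fdps were all highest in cGAS-/- LPS. Mvd, mevalonate diphosphate decarboxylase, makes isopentenyl diphosphate and lies on chromosome 8 (GRCm39, 123160336 to 123170324, minus strand). It stood at 5.74, 6.04 and 8.02 TPM in WT UT and at 3.98, 5.92 and 2.77 in WT LPS. In cGAS-/- UT it was 5.06, 5.19 and 4.08 TPM, and in cGAS-/- LPS 17.5, 11.8 and 13.7. The cGAS-/- LPS samples lay above all 9 others, cGAS-/- UT lay below WT UT, and the WT groups overlapped.

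Idi1, isopentenyl-diphosphate isomerase (chromosome 13, 8935537 to 8942487, plus strand), converts that unit into its reactive isomer. In WT cells it was 3.67, 3.54 and 4.60 TPM untreated and 2.14, 3.10 and 0.592 with LPS. In cGAS-/- cells it was 4.88, 4.54 and 4.80 TPM untreated and 9.92, 9.45 and 9.79 with LPS. WT LPS was lowest and cGAS-/- LPS highest without overlap, and the untreated groups overlapped. The values of Idi1 are uncertain, since 26.4% of its canonical transcript is also found in the pseudogene Idi1-ps1 at 100% identity in the longest match. Idi1-ps1 was listed at 0.962 to 12.4 TPM in WT UT, 0 to 1.55 in WT LPS, 7.76 to 17.0 in cGAS-/- UT and 10.7 to 21.1 in cGAS-/- LPS, and how reads were split between the pair was not tested.

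Fdps, farnesyl diphosphate synthase (chromosome 3, 89000888 to 89019213, minus strand), joins the units into farnesyl diphosphate, the last product shared by sterols and prenylated proteins. It was 5.31, 6.10 and 5.94 TPM in WT UT and 8.31, 6.15 and 3.51 in WT LPS. In cGAS-/- UT it was 5.28, 5.16 and 6.36 TPM, and in cGAS-/- LPS 16.5, 16.8 and 17.0. The other 3 groups overlapped one another, and cGAS-/- LPS lay above all of them. Several processed pseudogenes share up to 81.3% of the canonical Fdps transcript, and of those in the table none was above 0.330 TPM in any sample.

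Of the sterol enzymes, Cyp51 and Msmo1 followed the same order of groups, while Lss and Dhcr7 did not. Lss, lanosterol synthase (chromosome 10, 76367298 to 76392976, plus strand), closes the ring of the first sterol. It was 0.772, 1.22 and 1.16 TPM in WT UT, 2.22, 0.987 and 0.258 in WT LPS, 1.27, 1.73 and 2.09 in cGAS-/- UT and 2.60, 1.67 and 1.64 in cGAS-/- LPS. WT UT lay below both cGAS-/- groups, which overlapped each other, and the WT LPS samples ranged from the lowest value of the 12 to the second highest.

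Cyp51, lanosterol demethylase (chromosome 5, 4123416 to 4154751, minus strand), takes the first methyl group off lanosterol. It was 5.17, 5.14 and 4.59 TPM in WT UT, and 1.81, 3.99 and 0.126 in WT LPS. In cGAS-/- cells it was 5.85, 7.11 and 5.90 TPM untreated and 12.2, 10.9 and 10.2 with LPS. The 4 groups did not overlap, in the order WT LPS, WT UT, cGAS-/- UT and cGAS-/- LPS. Akap9 on the other strand shares 25.2% of the length of the Cyp51 canonical transcript and was at most 1.26 TPM.

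Msmo1, methylsterol monooxygenase (chromosome 8, 65170603 to 65186830, minus strand), removes the next methyl groups. It was 10.7, 10.9 and 11.3 TPM in WT UT and 6.96, 8.18 and 2.82 in WT LPS. It was 12.96, 12.96 and 13.1 TPM in cGAS-/- UT and 14.8, 13.8 and 14.1 in cGAS-/- LPS. The groups kept the order seen for Cyp51 with no overlap, and the untreated cGAS-/- samples spread by an SD of 0.0771 TPM around the mean (n = 3).

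Dhcr7, 7-dehydrocholesterol reductase (chromosome 7, 143376740 to 143402149, plus strand), carries out the last step to cholesterol. It was 1.74, 1.48 and 1.18 TPM in WT UT and 0.540, 0.542 and 1.79 in WT LPS. In cGAS-/- UT it was 1.34, 1.36 and 1.92 TPM, and in cGAS-/- LPS 0.931, 0.941 and 0.866. cGAS-/- LPS lay below both untreated groups, and 2 of the 3 WT LPS samples lay below every other sample. WT LPS replicate 3 gave the second highest Dhcr7 value of the 12 samples and the lowest value of each of the other 7 genes.

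Insig1, the anchor that keeps the SREBP-Scap complex in the endoplasmic reticulum (chromosome 5, 28276315 to 28283668, plus strand), stood at 19.1, 17.9 and 19.6 TPM in WT UT and at 9.76, 13.6 and 2.97 in WT LPS. It was 18.02, 19.5 and 19.8 TPM in cGAS-/- UT and 26.0, 23.6 and 22.6 in cGAS-/- LPS. WT LPS lay below and cGAS-/- LPS above the untreated groups, which overlapped.

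**Figure D1:**
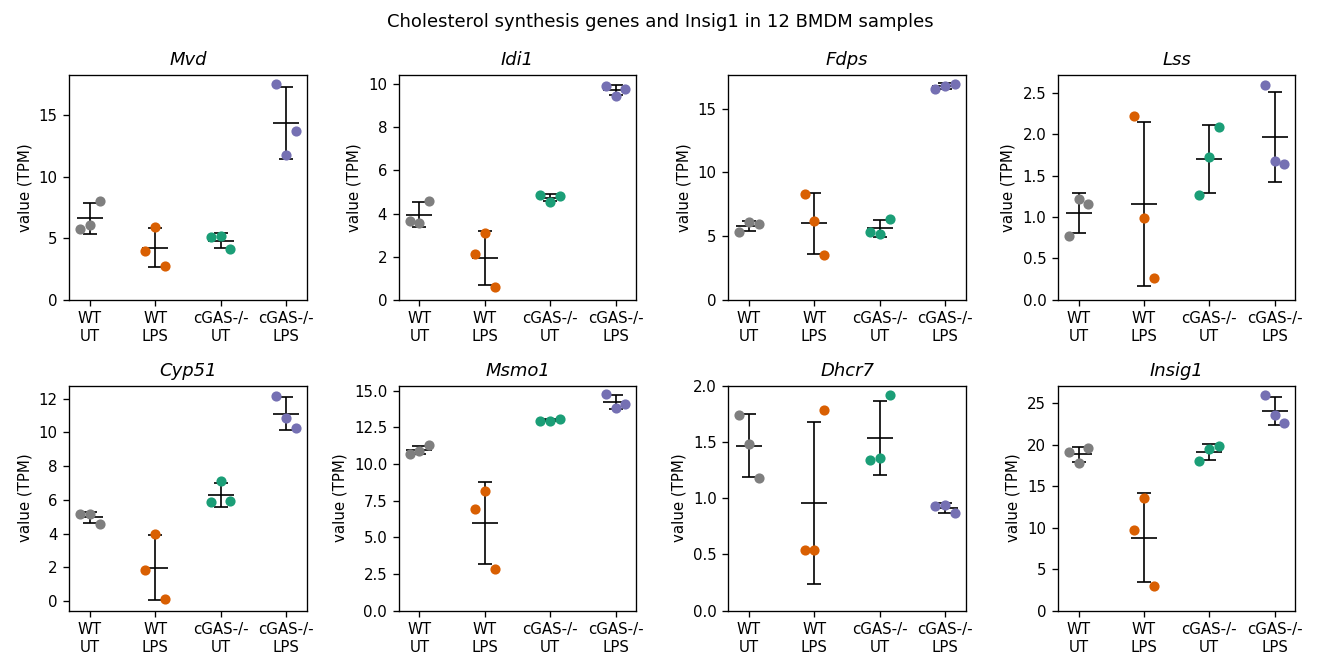
Value in TPM (y axis, linear) of each of the 8 genes in the 3 samples of each group (x axis), 1 point per sample in the order of the replicate numbers, with the group mean and SD (n = 3) as black bars. In 6 panels (Mvd, Idi1, Fdps, Cyp51, Msmo1 and Insig1) every cGAS-/- LPS point lies above every WT LPS point, whereas Lss and Dhcr7 overlap.

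With LPS, cells without cGAS held more transcript of 4 of these genes than WT cells. Cyp51, Idi1, Mvd and Fdps were higher and passed the test, while the other 4 did not, where 1.36% of the 11887 genes tested were called higher and 1% lower. Means were 11.1 ± 0.980 TPM (SD, n = 3) in cGAS-/- LPS against 1.98 ± 1.94 in WT LPS for Cyp51, and 9.72 ± 0.242 against 1.94 ± 1.27 for Idi1. They were 14.3 ± 2.93 against 4.22 ± 1.59 TPM for Mvd, and 16.8 ± 0.207 against 5.99 ± 2.40 for Fdps. The ratios of the means were 5.61 for Cyp51, 5.00 for Idi1, 3.39 for Mvd and 2.80 for Fdps, and 3.82, 3.71, 2.90 and 2.32 without WT LPS replicate 3.

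Fold changes were tested on the log2(TPM + 1) scale, which understates the change of genes with low values, with limma on all 12 samples and a Benjamini-Hochberg adjustment over the 11887 genes. The fit took 1 spread per gene from all 12 samples, so WT LPS also entered the SE of comparisons that do not use it. A gene was called at an adjusted p under 0.05. The log2 fold change of cGAS-/- LPS over WT LPS was 2.27 (SE 0.415) for Cyp51, with a limma adjusted p of 0.0181. It was 1.97 (SE 0.297) for Idi1 with a limma adjusted p of 0.00636, and 1.58 (SE 0.263) for Mvd with a limma adjusted p of 0.0108. For Fdps it was 1.41 (SE 0.256), with a limma adjusted p of 0.0180. The methods of the study also ask for a log2 fold change beyond 2, and only Cyp51 passed that as well, where 0.614% of all genes passed both in either direction. Without WT LPS replicate 3, Cyp51 was at 1.69 and no longer beyond 2, and Idi1, Mvd and Fdps were at 1.58, 1.37 and 1.12, all still called. When only the samples compared were fitted, none of these genes was called.

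Insig1 and Msmo1 had similar differences but missed the threshold. The log2 fold change was 1.55 (SE 0.389) for Insig1 with a limma adjusted p of 0.0738, and 1.22 (SE 0.294) for Msmo1 with a limma adjusted p of 0.0623. Lss at 0.55 (limma adjusted p = 0.336) and Dhcr7 at 0.03 (limma adjusted p = 0.962) were not called, and Dhcr7 turned to -0.15 with samples scaled by a trimmed mean of gene ratios. In 6 of the 8 genes the groups did not overlap and cGAS-/- LPS was higher, where 12.6% of all genes had that order and 5.17% the reverse. The median log2 fold change of the 8 genes was 1.48, against 0.20 for all genes tested. Without WT LPS replicate 3, or without WT LPS replicate 2, 6 of the 8 genes were called, Insig1 and Msmo1 being added. Their log2 fold changes were nonetheless smaller without replicate 3, at 0.999 for Insig1 and 0.83 for Msmo1, and that of Lss was 0.22. Without replicate 1, 2 or 3 of cGAS-/- LPS, 1, 2 and 1 genes were called, Idi1 each time. The values of Idi1 are uncertain because of the pseudogene Idi1-ps1, as given above.

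Before LPS no difference between the genotypes passed the test in these genes. None of the 8 genes was called in cGAS-/- UT against WT UT by limma, none had an unadjusted p under 0.05 (2.04% of all genes had one and were higher, and 6.04% lower), and each limma adjusted p was 1. The percentages of all genes called were 0.252% higher and 1.58% lower, and 0.37% passed both thresholds. The SE of each gene came from the spread in all 12 samples, WT LPS among them, and not from the untreated samples alone. The log2 fold changes lay between -0.39 (Mvd) and 0.39 (Lss) with a median of 0.13. Cyp51, Lss and Msmo1 were higher in cGAS-/- UT without overlap and Mvd lower, orders that 12.1% and 18.4% of all genes had. The ratio of the means was 1.62 for Lss, 1.27 for Cyp51, 1.20 for Idi1, 1.19 for Msmo1, 1.05 for Dhcr7, 1.01 for Insig1, 0.969 for Fdps and 0.724 for Mvd.

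In WT cells, LPS went with lower values of part of the genes. Cyp51, Insig1 and Msmo1 were lower in WT LPS than in WT UT and passed the test, so that 3 of 8 genes were called, beside 23.3% of all genes called lower and 4.31% higher. The share of genes called lower in this comparison was thus large in the table as a whole. The log2 fold change was -1.25 (SE 0.415) for Cyp51 with a limma adjusted p of 0.0451, and -1.22 (SE 0.389) for Insig1 with a limma adjusted p of 0.0394. For Msmo1 it was -0.87 (SE 0.294), with a limma adjusted p of 0.0475. Idi1 at -0.85 (limma adjusted p = 0.0551), Mvd at -0.57 (limma adjusted p = 0.121) and Dhcr7 at -0.39 (limma adjusted p = 0.223) were not called. Fdps at -0.02 and Lss at -0.03 differed by less than their SE of 0.256 and 0.302, and with trimmed mean scaling both turned positive, as did Dhcr7.

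In 4 genes (Cyp51, Idi1, Insig1 and Msmo1) WT LPS lay wholly below WT UT, an order found in 32.9% of all genes, against 5.31% for the reverse. No member passed both thresholds, where 4.32% of all genes did. The median log2 fold change of the 8 genes was -0.71, against -0.46 for all genes, and scaling the samples by a trimmed mean of gene ratios moved the median of all genes to -0.11. On that scale no member was called, the median of the 8 genes was -0.18, and relative to the median gene Cyp51 was at -0.82, Insig1 at -0.53, Msmo1 at -0.20 and Fdps at 0.65. Mvd was then 5.16, 5.61 and 5.23 scaled TPM in WT LPS, inside the 4.73 to 6.91 of WT UT. With this scaling and without WT LPS replicate 3, 3 members were called, Dhcr7 at -0.48 and Insig1 at -0.29 as lower and Fdps at 0.62 as higher (limma adjusted p = 0.0381). The calls also fell to 0 when any 1 sample of WT UT, cGAS-/- UT or cGAS-/- LPS was left out, and rose to 5 without WT LPS replicate 2 or without WT LPS replicate 3. Without the latter, the ratio of the WT UT mean to the WT LPS mean fell from 2.51 to 1.71 for Cyp51 and from 2.15 to 1.61 for Insig1. The 5 genes called lower without replicate 3 were Dhcr7, Cyp51, Insig1, Msmo1 and Idi1, at log2 fold changes of -0.67, -0.67, -0.66, -0.48 and -0.45, so that Dhcr7 lay farther from 0 and the other 4 nearer to it, while Lss at 0.31 and Fdps at 0.27 were positive and not called.

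In cGAS-/- cells, LPS went with higher values of Fdps and Mvd, enzymes of the mevalonate pathway. Both were higher in cGAS-/- LPS than in cGAS-/- UT and passed the test, 2 of 8 genes, beside 4.76% of all genes called higher and 9.06% lower. The ratio of the means was 3.0 for Mvd and 2.99 for Fdps, and the log2 fold change was 1.40 (SE 0.263) for Mvd with a limma adjusted p of 0.00421. For Fdps it was 1.43 (SE 0.256), with a limma adjusted p of 0.00311. These calls held under each of the 26 alternatives that left the threshold as it was. Idi1 at 0.90 (limma adjusted p = 0.0709), Cyp51 at 0.73 (limma adjusted p = 0.321) and Dhcr7 at -0.40 (limma adjusted p = 0.332) were not called. Insig1, Lss and Msmo1 had log2 fold changes of 0.32, 0.14 and 0.12, the last of which turned negative, with that of Lss, after rescaling to the protein-coding sum.

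The cGAS-/- LPS samples lay above cGAS-/- UT without overlap in 6 of the 8 genes, all but Lss and Dhcr7, an order that 15.5% of all genes had. Dhcr7 alone lay below, as 40.2% of all genes did. The median log2 fold change of the 8 genes was 0.52, against -0.20 for all genes, and no member passed both thresholds, where 3.5% of all genes did. Without WT LPS replicate 3, 5 genes were called, with Idi1 and Cyp51 added as higher and Dhcr7 as lower. That sample is not in this comparison and enters it only through the spread shared by all 12 samples.

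The difference of the LPS effect between the genotypes was tested as the interaction term of the same fit. Mvd was called, 1 of 8 genes, beside 0.732% of all genes called higher and 0.168% lower. Its effect of LPS was 1.97 (SE 0.372) higher on the log2 scale in cGAS-/- cells than in WT cells, with a limma adjusted p of 0.0395. The difference was 1.98 (SE 0.587) for Cyp51 with a limma adjusted p of 0.200, and 1.75 (SE 0.420) for Idi1 with a limma adjusted p of 0.0979. It was 1.53 for Insig1 (limma adjusted p = 0.317), 1.45 for Fdps (limma adjusted p = 0.117) and 0.99 for Msmo1 (limma adjusted p = 0.411), and 0.16 and -0.01 for Lss and Dhcr7. No member passed both thresholds, where 0.404% of all genes did. The median over the 8 genes was 1.49, against 0.27 for all genes. The count was 6 without WT LPS replicate 2 or 3, although without replicate 3 the differences were smaller, at 1.76 for Mvd, 1.40 for Cyp51, 1.36 for Idi1, 1.16 for Fdps, 0.98 for Insig1 and 0.605 for Msmo1. The count fell to 0 without any 1 sample of the 9 others outside WT LPS. In Cyp51, Idi1, Insig1 and Msmo1 all WT LPS samples were below all WT UT samples and all cGAS-/- LPS samples above all cGAS-/- UT samples, an order that 0.833% of all genes had, but the difference did not pass the adjusted threshold for these genes. With trimmed mean scaling Msmo1 lost this order, and the other 3 genes kept it. In Msmo1, 1 WT LPS sample at 9.03 scaled TPM then lay above 1 WT UT sample at 8.83. The order was not a planned test, and the genes were chosen with earlier results of these data known. The share of all genes is therefore a description only.

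**Figure D2:**
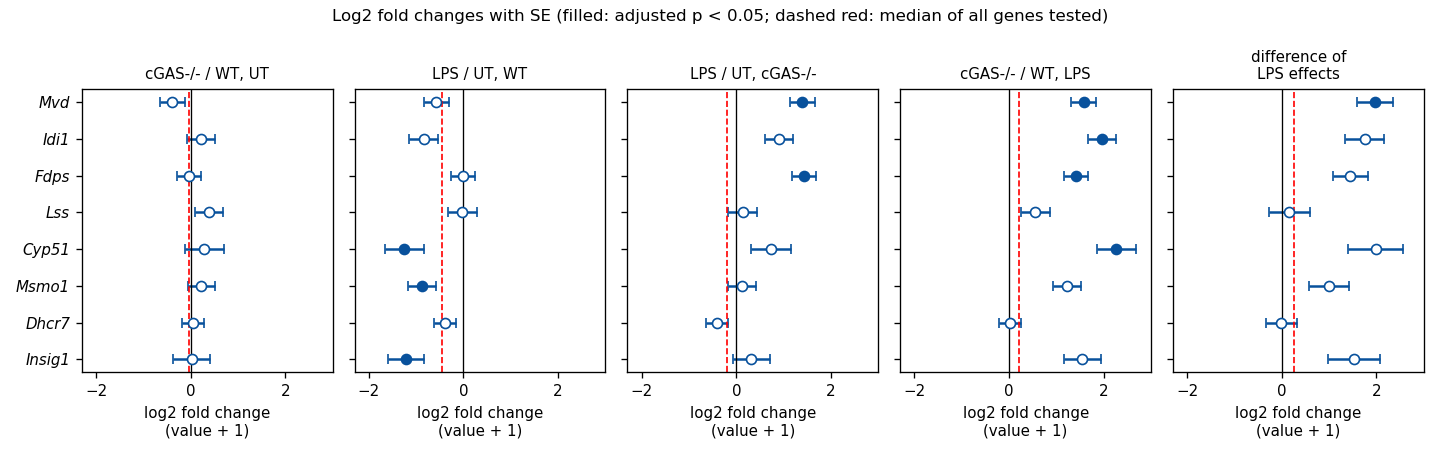
Log2 fold change on the log2(TPM + 1) scale (x axis) of each gene (y axis) in the 4 pairwise comparisons and in the difference of the LPS effects, with bars of 1 SE from limma on 12 samples, filled points for adjusted p under 0.05 and a dashed red line at the median of all 11887 genes. The 4 filled points with LPS are Mvd, Idi1, Fdps and Cyp51, and none is filled in untreated cells.

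**Figure D3:**
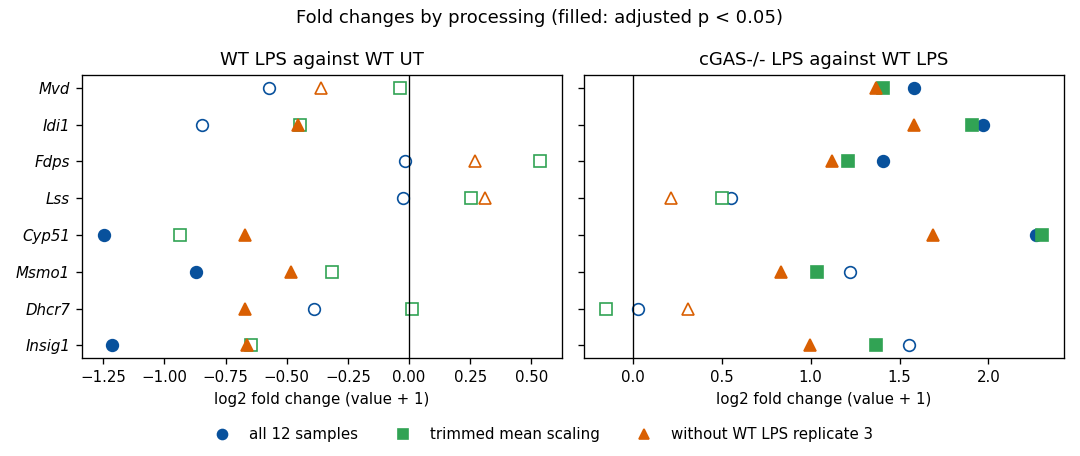
Log2 fold change on the log2(TPM + 1) scale (x axis) of each gene (y axis) in WT LPS against WT UT and in cGAS-/- LPS against WT LPS, with all 12 samples as deposited (circles), after trimmed mean scaling (squares) and without WT LPS replicate 3 (triangles), filled for adjusted p under 0.05. In the left panel no square is filled and Fdps, Lss and Dhcr7 lie on the other side of 0 with this scaling, whereas in the right panel Mvd, Idi1, Fdps and Cyp51 are filled in all 3 and Dhcr7 falls below 0 with the scaling.

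The remaining genes of the pathway were taken from lists. Of the mevalonate enzymes, Mvk and Pmvk were tested beside the members, and Acat2 and Hmgcs1 were not in the table. Mvk and Pmvk, the kinases that phosphorylate mevalonate, were called in none of the 4 pairwise comparisons by limma and had no unadjusted p under 0.05. Of the enzymes after squalene, Lbr, Hsd17b7 and Sc5d were tested, and Fdft1, Sqle, Tm7sf2, Nsdhl and Ebp were not in the table. Hsd17b7, a keto-reductase of sterols, was higher in cGAS-/- LPS than in WT LPS, at a log2 fold change of 1.23 (SE 0.191) with a limma adjusted p of 0.00730, and Lbr had a log2 fold change of -0.69 in WT LPS over WT UT, lower past the threshold.

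Of the machinery that controls SREBPs, 8 of 12 genes were tested, and Srebf2, which encodes the sterol-regulated SREBP, was not in the table. None of the 7 other than Insig1 was called between the genotypes with LPS by limma, where 3 had an unadjusted p under 0.05 and were higher and 1 was lower, beside 13.4% and 5.33% of all genes. In WT cells Srebf1, which encodes the other SREBPs, was lower with LPS at a log2 fold change of -0.76, Mbtps1, the protease that makes the first cut in SREBPs, at -1.08, and Insig2, the close relative of Insig1, was higher at 0.76. Scap, the sterol sensor that carries SREBPs to the Golgi, was lower with LPS in cGAS-/- cells at a log2 fold change of -1.02.

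Of other sterol-linked SREBP targets, 6 of 12 genes were tested. Aacs, acetoacetyl-CoA synthetase, was higher in cGAS-/- LPS than in WT LPS at a log2 fold change of 1.21 (SE 0.248) with a limma adjusted p of 0.0313, 1 of 6 beside 1.36% of all genes, and 4 of 6 were higher at an unadjusted p under 0.05, beside 13.4%. Tmem97, Aacs, Rdh11 and Mmab were lower with LPS in WT cells, at log2 fold changes of -1.12, -0.80, -1.17 and -0.72, 4 of 6 where 23.3% of all genes were called lower.

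Among fatty acid SREBP targets (8 of 14 tested), none was called between the genotypes with LPS by limma, and 4 were higher at an unadjusted p under 0.05, beside 13.4% of all genes. In WT cells Fasn, fatty acid synthase, was lower with LPS at a log2 fold change of -1.10, and Acaca, Lpin1 and Acsl3 at -0.58, -1.07 and -0.54, while Me1, malic enzyme, was higher at 0.79. Me1 was also higher with LPS in cGAS-/- cells, at a log2 fold change of 0.76, and Lpin1 was lower at -0.59. Of the non-sterol branches of the mevalonate pathway, which make ubiquinone, dolichol and prenyl groups, 12 of 14 genes were tested. Fnta alone was called, lower with LPS in WT cells at a log2 fold change of -1.06, where 23.3% of all genes were called lower.

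Of genes of sterol efflux, storage and the LXR receptors, 13 of 17 were tested, and none was called between the genotypes with LPS by limma, with 1 higher and 1 lower at an unadjusted p under 0.05, beside 13.4% and 5.33% of all genes. With LPS, Nr1h3, which encodes LXR-alpha, was higher in WT cells at a log2 fold change of 1.91 and in cGAS-/- cells at 1.96. Cyp27a1, which makes a hydroxylated cholesterol, was lower by the same comparisons at log2 fold changes of -3.32 and -2.52, Mylip, a ubiquitin ligase induced by LXR, at -2.77 and -2.60, and Nceh1, a cholesteryl ester hydrolase, at -2.06 and -2.53. Apoe and Pltp, both lipoprotein proteins, were lower with LPS at log2 fold changes of -1.96 and -1.25 in WT cells and at -1.91 and -1.37 in cGAS-/- cells. Lpcat3 and Scarb1 were called lower in WT cells, at log2 fold changes of -0.61 and -1.70. Cyp27a1 was the only gene of these lists called in untreated cells, at a log2 fold change of -1.30 in cGAS-/- UT against WT UT. That call was lost in 10 of 26 alternatives and kept its direction in each. Over the 51 genes tested from all lists other than the 8, 2 were called higher and 0 lower between the genotypes with LPS, beside 1.36% and 1% of all genes, and none was called for the difference of the LPS effect by limma, where 12 were higher and 1 lower at an unadjusted p under 0.05, beside 8.58% and 2.49% of all genes. Of the 19 genes among them called lower in WT LPS against WT UT, where 23.3% of all genes were, 6 were still called with trimmed mean scaling (Cyp27a1, Lpin1, Mylip, Nceh1, Pltp and Scarb1), and the 3 called higher (Insig2, Me1 and Nr1h3) were all still called. In cGAS-/- cells 7 were called lower and 2 higher, where 9.06% and 4.76% of all genes were. Trimmed mean scaling left 6 of the 7, without Scap, and 1 of the 2, without Me1. With this scaling and without WT LPS replicate 3, Scap at -0.81 and Me1 at 1.02 were called. Without WT LPS replicate 3, 18 of the 19 were still called lower, Mmab being lost at a log2 fold change of -0.47 (limma adjusted p = 0.0882). Apoe then went from -1.96 to -1.07, Rdh11 from -1.17 to -0.62, Tmem97 from -1.12 to -0.68, Aacs from -0.80 to -0.51, Mylip from -2.77 to -2.27 and Scarb1 from -1.70 to -1.19. The 3 called higher in WT LPS stayed called without that sample, and between the genotypes with LPS so did Aacs at 0.92 and Hsd17b7 at 1.25. Over all alternatives the call of Aacs was lost in 13 of 26 and that of Hsd17b7 in 3 of 25. The median log2 fold change of these 51 genes between the genotypes with LPS was 0.36, against 0.20 for all genes.

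**Figure D4:**
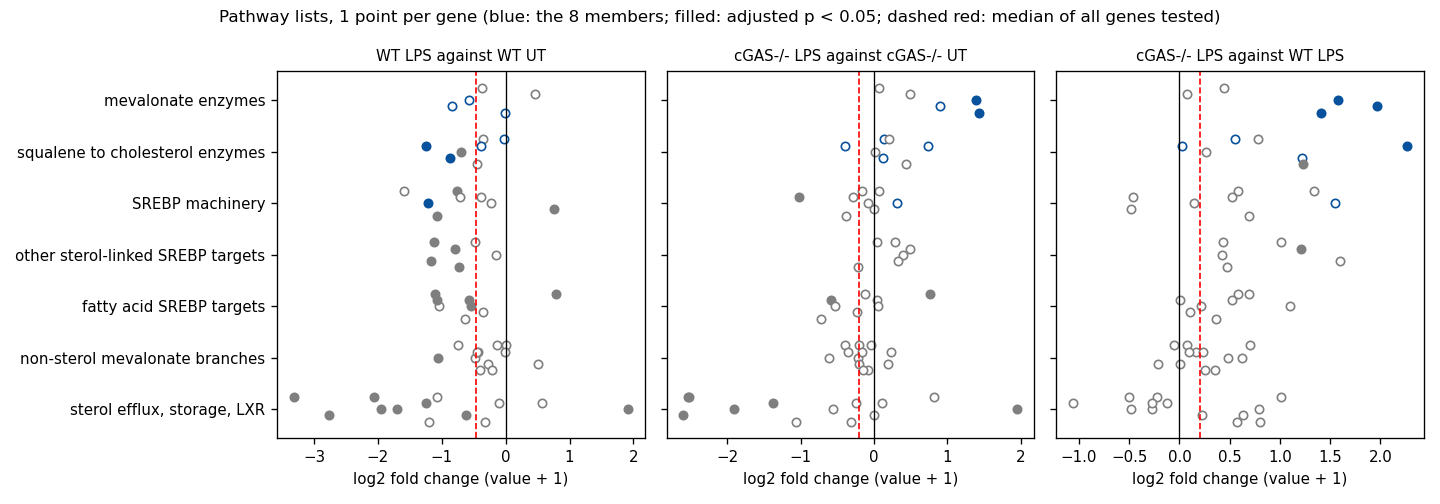
Log2 fold change on the log2(TPM + 1) scale (x axis) of each tested list gene reported here, grouped by list (y axis), in WT LPS against WT UT, cGAS-/- LPS against cGAS-/- UT and cGAS-/- LPS against WT LPS, with the 8 genes in blue, other genes in grey, filled points for adjusted p under 0.05 and the median of all genes as a dashed red line. In the right panel the filled points are the 4 blue ones and Hsd17b7 and Aacs in grey, all to the right of 0.

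The 8 genes did not all vary alike. Over the 12 samples, the Pearson correlation of a gene's log2(TPM + 1) with the mean of the standardised values of the other 7 was 0.974 for Idi1, 0.965 for Cyp51, 0.922 for Msmo1 and 0.914 for Insig1. It was 0.767 for Mvd, 0.684 for Fdps, 0.642 for Lss and -0.310 for Dhcr7. Genes outside the 8 were ranked by their correlation with the mean of the standardised values of all 8 members. Of the 10 most alike, 9 were Hyou1 (r = 0.968), Mfap3l (0.966), Pik3cg (0.956), Hsd17b12 (0.955), Prkar2b (0.955), Prkcb (0.946), Rps4l (0.945), Chsy1 (0.943) and Tnfaip2 (0.939). These correlations describe 12 samples that share 4 groups and the low values of WT LPS replicate 3, in which the mean of the standardised members was -1.76, against -0.64 and -0.55 in the other WT LPS samples and 0.76 to 1.06 in cGAS-/- LPS. Hyou1, a chaperone of the endoplasmic reticulum, was at 1.10 TPM in that sample and at 9.11 to 9.99 in cGAS-/- LPS.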

How the data were processed

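BMDMs of 4 groups (WT or cGAS-/-, UT or LPS, 3 samples each) were analysed. Per the labels and the methods, reads were processed with fastp, aligned to GRCm39 with STAR and quantified with kallisto (versions not given in the sources used here). The authors deposited 1 table, taken here as TPM averaged over the transcripts of a symbol. The unit was inferred: of 4000 long values, 80.47% became short decimals on multiplication by a whole number, against 0.05% of altered values. Read numbers are unknown, so counting error could not be given.

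Genes of at least 1 in at least 3 of 12 samples, after rescaling to 1000000 for this filter only, were kept. Limma 3.58.1 in R 4.3.3 was fitted to log2(TPM + 1) with 4 group means and a trended variance, and tested on simulated data. Called genes had an adjusted p under 0.05. The methods' threshold of a log2 fold change beyond 2 is given beside it. The members and lists were chosen with earlier results of these data known. Named genes were the 8 members, list genes called in a pairwise comparison or of highest mean level, and the 10 most alike genes. A few genes of the lists, 1 of them also among the most alike, are not reported here and were left out of the list counts. Idi1-ps1, Akap9, Fth-ps3, Lcn2 and the Fdps pseudogenes were named after their values were seen. Shared sequence was searched with blastn 2.17.0 in GENCODE vM39 transcripts. The library kit was stranded, but the strand setting of the quantification was not given in the sources used here. Overlapping genes on the other strand are annotated for Cyp51, Idi1, Insig1, Lss and Mvd. Alternatives were pseudocounts of 0.1 and 5, no filter or a filter at 5 TPM, trimmed mean, quantile and common total scaling, only the samples compared, a replicate block, no trend, sample weights, protein-coding genes only and each sample left out. Rescaling to the protein-coding sum, and trimmed mean scaling without WT LPS replicate 3, were chosen after seeing the data.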

Additional observations from a re-analysis of the deposited data

Results flagged for a closer look

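The effect of LPS on Mvd differed between the genotypes by 1.97 on the log2 scale, by the test of the interaction term. Mvd was 3.0 times as high with LPS in cGAS-/- cells, higher in 3 of 3 samples than in any untreated cGAS-/- sample, while the WT groups overlapped. The call was lost in 14 of 25 alternatives and kept its direction in each.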

How the results depend on the processing

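In cGAS-/- LPS against WT LPS, 4 genes were called, and 0 from only the samples compared, 1 with a log2 fold change beyond 2 required as well, and 1 to 6 with 1 sample left out. In WT LPS against WT UT, 3 were called, and 1 with a pseudocount of 0.1 or quantile normalization, 0 with no filter, trimmed mean scaling, only the samples compared or both thresholds, 5 after rescaling to a common total or to the protein-coding sum, and 0 to 5 with 1 sample left out. In cGAS-/- LPS against cGAS-/- UT, 2 were called, and 6 from only the samples compared, with sample weights or with trimmed mean scaling without WT LPS replicate 3, 0 with both thresholds, and 2 to 5 with 1 sample left out. In untreated cells, 0 were called, and 1 from only the samples compared and 0 with any 1 sample left out. For the difference of the LPS effect, 1 was called, and 0 with a pseudocount of 0.1, no filter, rescaling to a common total or both thresholds, 2 with trimmed mean scaling or quantile normalization, 3 with a pseudocount of 5 or the protein-coding sum, 5 with sample weights, 6 with trimmed mean scaling without WT LPS replicate 3, and 0 to 6 with 1 sample left out. The causes were not tested. With the replicate block the count was 0 for that difference, and it changed no other count by over 1.5 times. Same-numbered samples correlated at -0.031 to 0.038 over 18 pairs, so the numbers are not taken as pairing.

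Some values changed sign, in log2, and Fdps was called in the other direction in 1 setting named below (0.616). In untreated cells Dhcr7 went to -0.006 (common total), Insig1 to -0.054 (common total) and Fdps to 0.019 and 0.022 (trimmed mean, quantile) and 0.019 (trimmed mean without WT LPS replicate 3). With 1 sample left out, these genes ranged from -0.064 to 0.119, -0.017 to 0.059 and -0.123 to 0.006. Between genotypes with LPS, Dhcr7 went to -0.004 (pseudocount 5), -0.152 (trimmed mean), -0.216 (quantile) and -0.146 (protein-coding sum), and ranged from -0.116 to 0.311 with 1 sample left out. In WT cells Dhcr7 went to 0.011 (trimmed mean) and 0.162 (quantile). Lss went to 0.013 (pseudocount 5), 0.252 (trimmed mean), 0.461 (quantile), 0.346 (weights) and 0.555 (trimmed mean without WT LPS replicate 3), and Fdps to 0.004, 0.535, 0.498, 0.267 and 0.616 in the same order. With 1 sample left out, Lss ranged from -0.367 to 0.311 and Fdps from -0.255 to 0.268. Acsl3 went to 0.003 (quantile). In cGAS-/- cells Lss went to -0.052 and Msmo1 to -0.153 (protein-coding sum), and Lss ranged from -0.010 to 0.240 with 1 sample left out. In the difference of the LPS effect, Dhcr7 went to 0.076 (pseudocount 0.1), 0.119 (common total), 0.238 (weights) and 0.258 (trimmed mean without WT LPS replicate 3), and ranged from -0.157 to 0.271. Lss went to -0.102 (quantile), -0.176 (weights) and -0.200 (trimmed mean without WT LPS replicate 3), and ranged from -0.175 to 0.503. No depth is known, so low values such as those of Lss, Dhcr7 and Cyp51 in WT LPS replicate 3 have no counting interval.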
